A study of Homo sapiens with 30 samples.

Results

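A set of 10 genes of heme breakdown and iron handling was followed in A549, a carcinoma line from human lung, after treatment with herbal extracts. The 10 members were chosen by name, as the rows whose Ensembl ID maps to HMOX1, HMOX2, BLVRA, BLVRB, FTH1, FTL, TFRC, SLC40A1, SLC48A1 or BACH1, out of 60675 gene rows. Each symbol matched 1 row, and all 10 were among the 17701 genes abundant enough to test. Cells received a 70% ethanol extract of 1 of 4 Korean tonifying formulas for 24 h, at a low (20 µg/mL), medium (100 µg/mL) or high dose (500 µg/mL), or the DMSO vehicle. There were 3 libraries for each dose of Sibjeondaebo-tang and of Palmul-tang, 2 for each of Samul-tang, 1 for each of Sagunja-tang and 3 for vehicle, so that 30 libraries fell into 13 groups. The sample labels give the vehicle as 0.1% DMSO and the series text as 2%. For the extract libraries the labels give no DMSO share, and the part of DMSO in the results was not tested. A549 is a single cancer line known to carry a mutation in KEAP1, the NRF2 inhibitor, which all groups share, and NRF2 activity was not measured here. Samples of a group are numbered replicates whose independence is not stated, so p-values reflect only how these libraries spread, and that spread may be technical.

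Heme is taken apart by heme oxygenase, which releases iron, carbon monoxide and biliverdin, and biliverdin reductase turns the last into bilirubin. Released iron is stored in ferritin or leaves the cell through ferroportin, and iron-loaded transferrin enters through the transferrin receptor. HMOX1 is the inducible oxygenase: BACH1, a repressor that lets go of DNA when it binds heme, holds the gene down, and NRF2 raises it. Iron-regulatory proteins bind hairpins called iron-responsive elements, which block translation from a 5′ UTR and protect a transcript from decay when they lie in a 3′ UTR.

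Libraries held 23986637 to 35159898 expected counts. All 6 epithelial markers were above 1 CPM (counts scaled to a common library size with TMM factors) in every library, with sums of 8257 to 11411 CPM. The sum was 9106 to 9348 CPM with the low and 10472 to 11139 CPM with the high dose of Sibjeondaebo-tang and 10948 to 11411 CPM in vehicle, and its part in the results was not tested. In Palmul-tang it was 9004 to 9610 CPM (low) and 8418 to 9158 CPM (high), and in Samul-tang 8257 to 9722 CPM and 9053 to 9475 CPM. Of 7 alveolar type 2 markers, ABCA3 alone reached 1 CPM in every library and the defining gene SFTPC was at 0 to 0.285 CPM. These 7 summed to 29.5 to 29.8 CPM with the low and 32.6 to 35.9 CPM with the high dose of Sibjeondaebo-tang, and the part of this in the results was not tested either. Globin transcripts were present, with HBB at 9.73 to 49.6 CPM, while SLC4A1, the anion exchanger of red cells, did not exceed 0.209 CPM. The 6 erythroid markers summed to 19.6 to 80.9 CPM, and HBB, HBA1 and HBA2 were not called between the high and low doses of any of the 3 replicated formulas (edgeR adjusted p from 0.175 to 0.947). In bulk RNA, fewer cells of a type and less RNA per cell cannot be told apart.

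The iron-responsive elements of the members are shown because they separate the storage and export transcripts from the uptake transcript. A search of 1 GENCODE 29 transcript per member looked for the loop CAGTGN with N not G, at least 4 of 5 stem pairs beside it and an unpaired C just before the stem, on the transcript strand. Each site is printed as 30 bases, 5′ to 3′ on GRCh38, with the 6-base loop in capitals.

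FTH1, 5′ UTR, chr11:61967573-61967602, minus strand: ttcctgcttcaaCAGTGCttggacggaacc
FTL, 5′ UTR, chr19:48965335-48965364, plus strand: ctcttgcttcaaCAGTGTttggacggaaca
SLC40A1, 5′ UTR, chr2:189580660-189580689, minus strand: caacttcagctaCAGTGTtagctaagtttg
TFRC, 3′ UTR, chr3:196050978-196051007, minus strand: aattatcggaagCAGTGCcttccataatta
TFRC, 3′ UTR, chr3:196050574-196050603, minus strand: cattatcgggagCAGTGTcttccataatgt
TFRC, 3′ UTR, chr3:196050509-196050538, minus strand: ctgtatcggagaCAGTGAtctccatatgtt
TFRC, 3′ UTR, chr3:196050462-196050491, minus strand: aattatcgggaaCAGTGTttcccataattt

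FTH1, FTL and SLC40A1 each held 1 site and TFRC held 4, while the other 6 members held 0. Among 19702 protein-coding genes, searched in their longest transcript, 7.12% held at least 1 site by the same rule and 0.0355% held 3 or more. All 7 member sites had 5 of 5 stem pairs. With that stricter stem, a setting added after the member sites were seen, the shares were 0.949% and 0.0102%.

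Per kilobase of exon, FTL was the most abundant member in vehicle, at 11726 ± 755 CPM per kb (SD, n = 3), and FTH1 was next at 2820.1 ± 182 CPM per kb. BLVRB followed at 115 ± 6.16 CPM per kb, TFRC at 36.3 ± 1.57, BLVRA at 29.2 ± 1.32 and HMOX1 at 22.1 ± 1.62 CPM per kb. HMOX2 was at 15.8 ± 0.196, SLC48A1 at 9.995 ± 0.641, SLC40A1 at 9.62 ± 0.599 and BACH1 at 3.79 ± 0.390 CPM per kb. SLC48A1 and SLC40A1 did not differ in this order beyond their spread. The lengths joined the exons of all annotated transcripts, 2405 bases for HMOX1 and 3793 bases for HMOX2. The single transcripts searched above have 1822 and 1703 bases, and with these HMOX2 would stand above HMOX1. The pair of ferritin genes together took 1.60% of all counts in vehicle, and 1.85% at the high dose of Sibjeondaebo-tang.

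**Figure D1:**
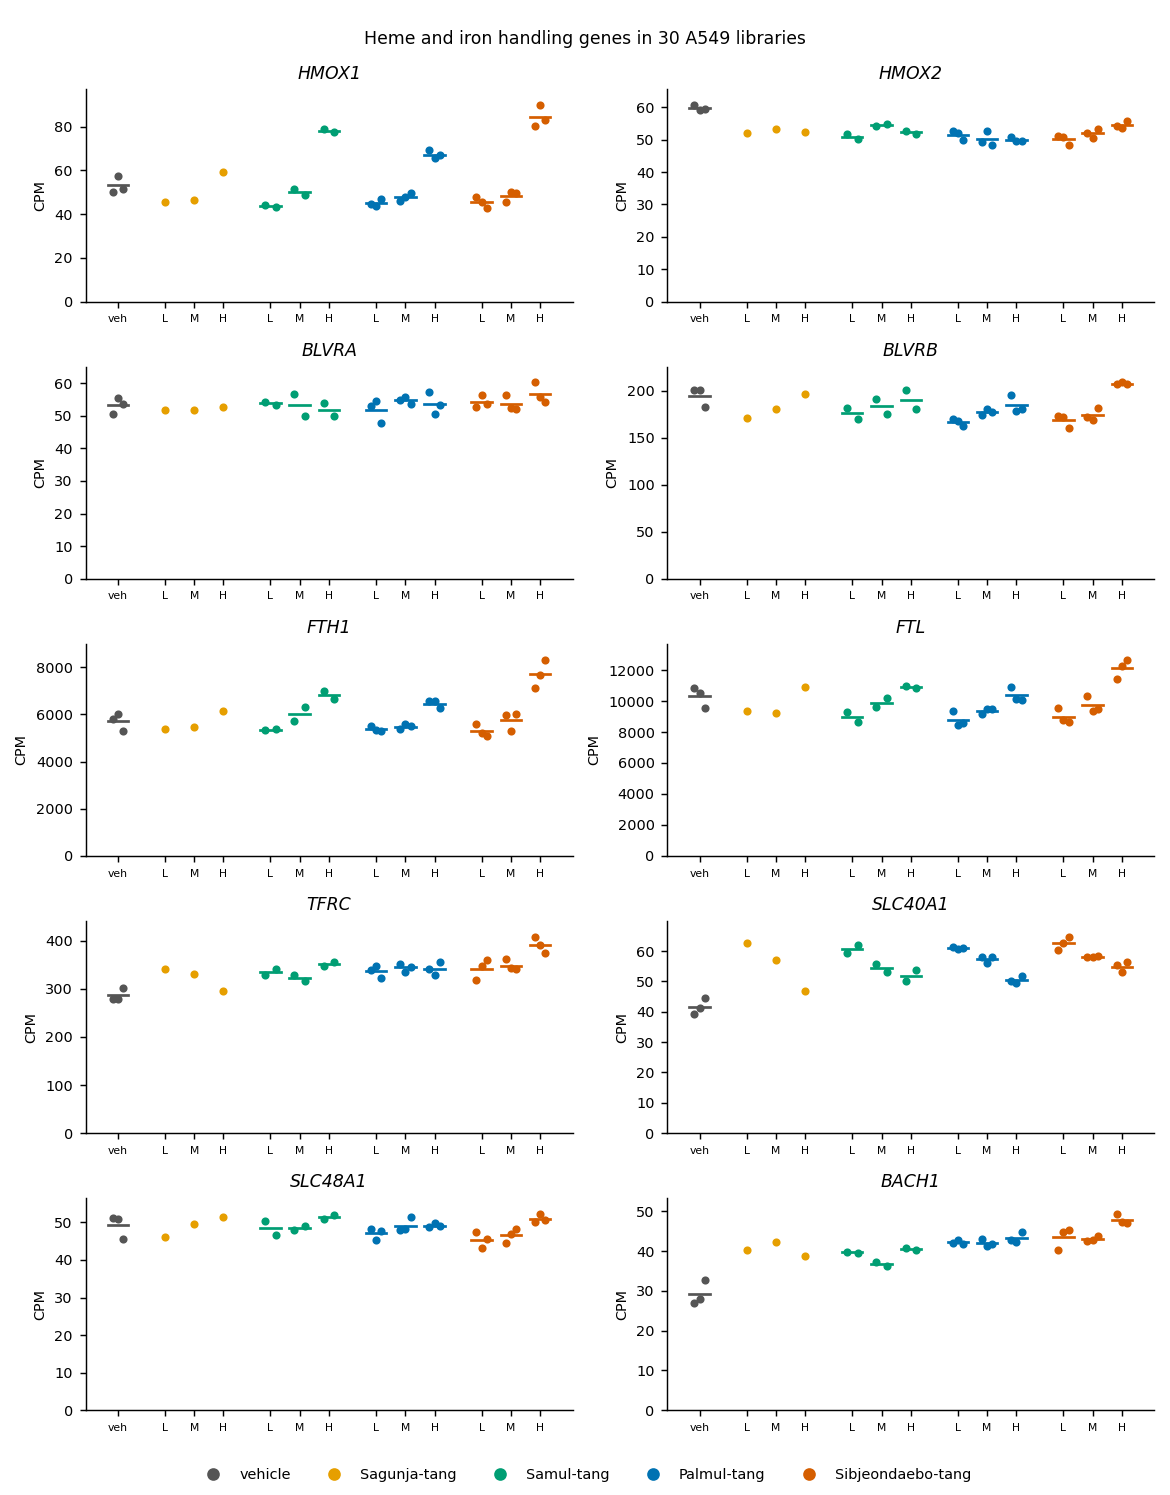
Level of each of the 10 genes (CPM, from 0) in every library, by vehicle (veh) and by low (L), medium (M) and high (H) dose of each formula; points are libraries and bars are group means where a group has more than 1. HMOX1 stands at 65.5 to 89.8 CPM in the high-dose libraries of the 3 replicated formulas and at or below 57.6 CPM in vehicle, low and medium dose.

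The first question was how the genes followed the dose of a formula, a comparison with no vehicle library on either side. Vehicle libraries entered only the filter, scaling and estimate of spread that all groups share. HMOX1 rose from the low to the high dose of all 3 replicated formulas, and FTH1 and FTL, the heavy and light chains of ferritin, rose with it. SLC40A1, the iron exporter ferroportin, fell in all 3. BLVRB, TFRC, SLC48A1, HMOX2 and BACH1 rose in Sibjeondaebo-tang and were not called in the other formulas, and BLVRA was not called in any. A call is an adjusted p under 0.05 by edgeR's quasi-likelihood test with Benjamini-Hochberg adjustment over all genes tested. The adjustment depends on how many genes change, so the cutoff was not alike across formulas. BLVRB in Palmul-tang had an unadjusted edgeR p of 0.0046 and no call, while HMOX2 in Sibjeondaebo-tang was called at 0.0056. A missing call is therefore not a missing change. Of BLVRB, TFRC, SLC48A1, HMOX2 and BACH1, only HMOX2 was called in the main test for a difference in dose response, given below.

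In Sibjeondaebo-tang 8 members were called higher and 1 lower, where 38.4% of all genes were called, 18.5% higher and 19.9% lower. In Palmul-tang 3 were higher and 1 lower, against 3.47% of all genes called, 1.46% higher and 2.02% lower. In Samul-tang 3 were higher and 1 lower, against 1.34% of all genes called, 0.604% higher and 0.74% lower. The members were chosen with earlier results of these data known, so these counts are not independent of the data. The median log2 change of the 10 members was 0.18, 0.06 and 0.08 in these formulas, and that of all genes was -0.01, 0.00 and -0.00. In Samul-tang, with 2 libraries per dose, 1 member was higher without high replicate 2 or without low replicate 3, and 0 were lower without either of these or without low replicate 2. The background moved too: of all genes 238 were called, but 58 without high replicate 2, 149 without low replicate 2, 106 without high replicate 3 and 49 without low replicate 3. In Palmul-tang 615 were called, but 351 without high replicate 1 and 371 without low replicate 3.

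HMOX1 (ENSG00000100292, chr22:35380361-35394214, plus strand, GRCh38) was at 47.8, 45.6 and 42.6 CPM in the low-dose libraries of Sibjeondaebo-tang. Its high-dose libraries held 80.4, 89.8 and 83.1 CPM. Every high-dose library lay above every low-dose library. The log2 change was 0.90 (SE 0.0525, edgeR adjusted p 1.5e-14), a 1.86-fold rise. In Palmul-tang the gene went from 44.6, 43.8 and 46.8 CPM to 69.2, 65.5 and 67.1 CPM. Here too the doses did not overlap, and the log2 change was 0.58 (SE 0.0528, edgeR adjusted p 4.3e-09). With Samul-tang the gene moved from 44.3 and 43.4 CPM to 78.9 and 77.6 CPM, a log2 change of 0.84 (SE 0.0648, edgeR adjusted p 5.1e-10).

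At the medium dose HMOX1 was closer to its low-dose than to its high-dose level, and the step from medium to high was not tested. Medium-dose libraries of Sibjeondaebo-tang were at 45.5, 49.9 and 49.7 CPM, those of Palmul-tang at 46.2, 47.9 and 49.7 CPM, and those of Samul-tang at 51.6 and 48.5 CPM. All of them lay below every high-dose library of their formula. The medium minus low change was 0.09, 0.09 and 0.19 on the log2 scale and was not called (edgeR adjusted p 0.823, 0.998 and 0.834). None of the 10 members was called on this step. There edgeR called 0.0113% of genes for Sibjeondaebo-tang, 0.00565% for Palmul-tang and 0% for Samul-tang. Genes at an unadjusted p under 0.05 numbered 1108, 741 and 988. SLC40A1 was nonetheless lower at the medium than at the low dose of each replicated formula, with no overlap. Its log2 changes were -0.11, -0.09 and -0.16 (unadjusted edgeR p 0.019, 0.049 and 0.0056). HMOX1 did not overlap between these doses in Samul-tang (95% interval of the change 0.05 to 0.33), but did in Sibjeondaebo-tang and Palmul-tang. No other member was free of overlap in all of these formulas.

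HMOX2 is the constitutive heme oxygenase. In Sibjeondaebo-tang it went from 50.1 ± 1.53 CPM to 54.6 ± 1.12 CPM (SD, n = 3 each), a log2 change of 0.12 (SE 0.0414, edgeR adjusted p 0.018). This call was lost without low replicate 3 (adjusted p 0.0987), and without TMM scaling the value was -0.029. In Palmul-tang and Samul-tang its changes were -0.04 and 0.04 and were not called. The ratio of HMOX1 to HMOX2 counts within a library was 0.890 ± 0.0737 in vehicle, 0.905 ± 0.0283 with low-dose Sibjeondaebo-tang and 1.55 ± 0.111 with the high dose. Exons of HMOX2 overlap those of NMRAL1 on the other strand, and whether the counting used strand is not given in the sources used here.

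Of the biliverdin reductases, BLVRB, which also reduces flavins, was called in 1 formula. It went from 173, 172 and 160.2 CPM with low-dose Sibjeondaebo-tang to 207, 209 and 207 CPM with the high dose, with no overlap. Its log2 change was 0.30 (SE 0.0483, edgeR adjusted p 9.1e-06). In Palmul-tang it was 0.15 (edgeR adjusted p 0.091) and in Samul-tang 0.12 (edgeR adjusted p 0.387), neither of them called. The Palmul-tang doses did not overlap either, at 162 to 170 CPM (low) and 178 to 196 CPM (high), while the Samul-tang doses did. BLVRA, the main biliverdin reductase of adult tissue, had changes of 0.07, 0.06 and -0.05, and its dose groups overlapped in all 3 formulas.

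The ferritin chains rose in all 3 formulas. FTH1, the ferroxidase chain, was at 5612, 5218 and 5074 CPM with low-dose Sibjeondaebo-tang and at 7129, 7689 and 8332 CPM at the high dose. The groups did not overlap, and the log2 change was 0.54 (SE 0.0553, edgeR adjusted p 2.7e-09). FTL, the light chain, was at 9534, 8782 and 8622 CPM at the low dose and at 11442, 12237 and 12682 CPM at the high dose, a log2 change of 0.43 (SE 0.054, edgeR adjusted p 1.2e-07). In Palmul-tang the changes were 0.26 for FTH1 (edgeR adjusted p 0.0028) and 0.24 for FTL (edgeR adjusted p 0.0066), and in Samul-tang 0.35 (edgeR adjusted p 0.0033) and 0.28 (edgeR adjusted p 0.021). The Palmul-tang call of FTL was lost with only the compared groups in the fit (adjusted p 0.0657) and without high replicate 1, low replicate 2 or low replicate 3 (adjusted p 0.0597 to 0.0794). In Samul-tang the FTH1 call was lost without high replicate 2 or either low replicate (0.0506 to 0.106), and the FTL call without either high replicate or low replicate 3 (0.107 to 0.284). Rows named as FTH1 or FTL pseudogenes held at most 0.226% of the counts of either family, and adding them changed no call. FTH1 exons overlap those of BEST1 on the other strand.

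SLC40A1, for iron exit, and TFRC, for iron entry, had changes of opposite sign in Sibjeondaebo-tang. SLC40A1 was at 60.4, 62.7 and 64.8 CPM with its low dose and at 55.3, 53.1 and 56.3 CPM at the high dose, with no overlap. It fell by 0.19 on the log2 scale there (SE 0.0437, edgeR adjusted p 0.00081), by 0.28 in Palmul-tang (edgeR adjusted p 9.3e-05) and by 0.23 in Samul-tang (edgeR adjusted p 0.024). The Samul-tang call was lost without high replicate 2 or either low replicate (adjusted p 0.0506 to 0.346). TFRC, the transferrin receptor, was at 319, 347 and 360.3 CPM with low-dose Sibjeondaebo-tang and at 409, 392 and 374 CPM at the high dose, a log2 change of 0.19 (SE 0.046, edgeR adjusted p 0.001). Without TMM scaling the TFRC value was 0.04 and was not called. The ratio of SLC40A1 to TFRC counts was not tested and went from 0.183 ± 0.00539 to 0.140 ± 0.00866 with Sibjeondaebo-tang (SD, n = 3 each). Palmul-tang gave 0.181 ± 0.00714 at its low and 0.147 ± 0.00220 at its high dose. With Samul-tang it was 0.181 and 0.148 (n = 2 each). Vehicle was at 0.145 ± 0.00432 (SD, n = 3), so that the low-dose means stood further from vehicle than the high-dose means. No high-dose library overlapped a low-dose library of its formula in this ratio.

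**Figure D2:**
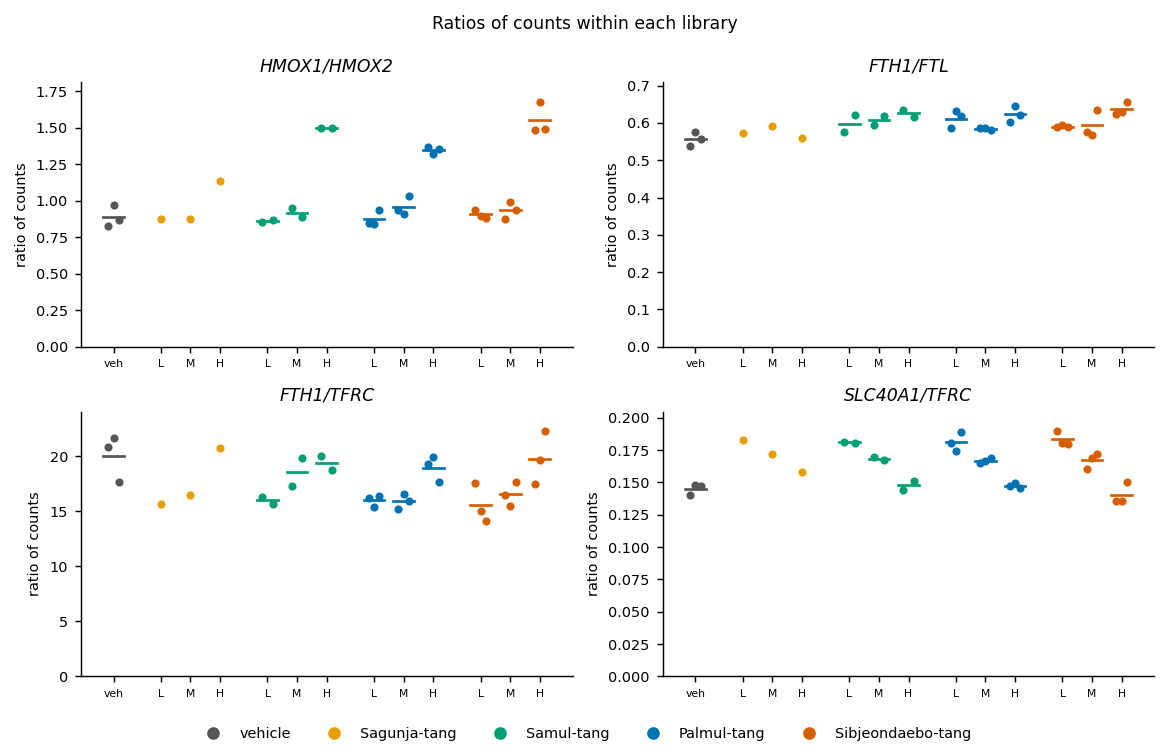
Ratios of counts between pairs of genes within each library, by vehicle (veh) and by low (L), medium (M) and high (H) dose; points are libraries and bars are group means. HMOX1/HMOX2 is 1.14 or more in every high-dose library and at most 1.03 in the others. SLC40A1/TFRC is lower at the high than at the low dose of each formula, and is 0.140 to 0.148 in vehicle.

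SLC48A1, a heme transporter of endosomes and lysosomes, rose in Sibjeondaebo-tang by a log2 change of 0.17 (SE 0.0486, edgeR adjusted p 0.0069), from 45.4 ± 2.09 to 51.0 ± 1.17 CPM. The call was lost without low replicate 2 (adjusted p 0.0524) and without TMM scaling (0.847). BACH1 rose there by 0.14 (SE 0.0519, edgeR adjusted p 0.032), from 43.5 ± 2.72 to 47.9 ± 1.28 CPM. That call was lost without high replicate 1 (0.0581) or low replicate 1 (0.189), and without TMM scaling the value was -0.014. SLC48A1 overlaps exons of HDAC7 and RAPGEF3 on the other strand, and BACH1 overlaps LINC00189 on its own strand and GRIK1 on the other.

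**Figure D3:**
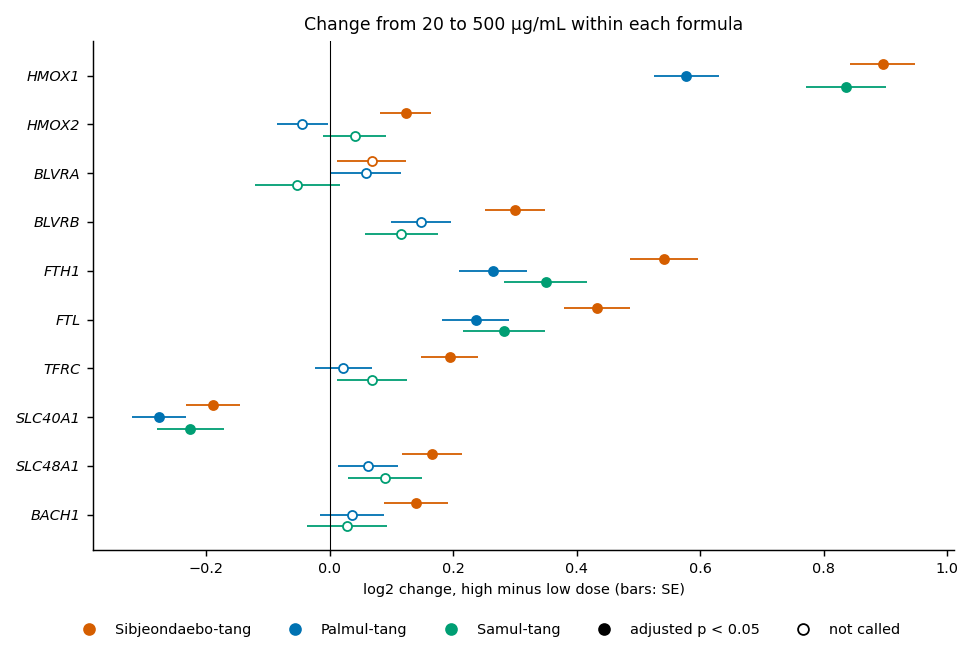
Log2 change between 20 and 500 µg/mL of each gene in the 3 replicated formulas; bars are SE and filled points have an edgeR adjusted p under 0.05. HMOX1 has the largest value of the 10 in each formula, at 0.58 to 0.90, and SLC40A1 is below 0 in all 3.

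The next question was whether the formulas differed. At the high dose, 8 members were higher in Sibjeondaebo-tang than in Palmul-tang, where 30.3% of all genes were called. HMOX1 was higher by 0.33 on the log2 scale (SE 0.0514, edgeR adjusted p 1.0e-05), FTH1 by 0.26 (edgeR adjusted p 0.00057), FTL by 0.22 (edgeR adjusted p 0.0017) and TFRC by 0.20 (edgeR adjusted p 0.0014). BLVRB, BACH1, HMOX2 and SLC40A1 were higher by 0.12 to 0.17, and without TMM scaling these 4, FTL and TFRC were not called. The calls of HMOX2, SLC40A1 and BACH1 were also lost with only the compared groups in the fit and without single high-dose libraries: HMOX2 without Palmul-tang replicate 2, SLC40A1 without Palmul-tang replicate 1 or 2 or Sibjeondaebo-tang replicate 3, and BACH1 without Palmul-tang replicate 1 or 2 or Sibjeondaebo-tang replicate 1 (adjusted p 0.0505 to 0.101). Samul-tang and Palmul-tang differed in 0 members, where 0.192% of genes were called. For HMOX1 that difference was 0.22 (95% interval 0.10 to 0.34, edgeR adjusted p 0.114), and it was called with no filter on low counts (0.0224). Between Sibjeondaebo-tang and Samul-tang, FTH1, TFRC and BACH1 were called higher in the former, where 21.3% of genes were called, and HMOX1 differed by 0.11 (95% interval -0.01 to 0.23, edgeR adjusted p 0.176). The FTH1 and TFRC calls were each lost without single high-dose libraries: FTH1 without Samul-tang replicate 2 or 3 or Sibjeondaebo-tang replicate 3, and TFRC without Samul-tang replicate 2 or 3 or Sibjeondaebo-tang replicate 1 (adjusted p 0.0761 to 0.27). Without TMM scaling FTH1, TFRC and BACH1 were not called (adjusted p 0.12, 0.25 and 0.0549). With the replicate number as a block, FTH1 had an adjusted p of 0.0535. FTL was called with DESeq2 (0.0402), with no filter (0.00633), with only the compared groups (0.0189) and without Sibjeondaebo-tang replicate 1 (0.0301). BLVRB was called with no filter (0.0423), with only the compared groups (0.0444) and without Samul-tang replicate 2 (0.0374). Of all genes 3775 were called, but 1506 without Samul-tang replicate 3 and 2497 without Samul-tang replicate 2. The library codes of Samul-tang and Sagunja-tang begin with a different number from those of Palmul-tang and Sibjeondaebo-tang, so that a difference in preparation, if the codes mark one, cannot be told apart from the formula in comparisons across these pairs.

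The dose response itself was tested for a difference between formulas, in comparisons that share libraries. HMOX1 rose more in Sibjeondaebo-tang than in Palmul-tang, by 0.32 on the log2 scale (SE 0.0743, edgeR adjusted p 0.0031), as did FTH1 by 0.28 (edgeR adjusted p 0.0133) and HMOX2 by 0.17 (edgeR adjusted p 0.0497). These 3 of 10 members compare with 14.9% of all genes, and none of the 3 was called without TMM scaling (adjusted p 0.0998, 0.173 and 0.758). The HMOX2 call was also lost without any of 8 single libraries, with no filter and with only the compared groups in the fit (0.0545 to 0.121). FTL and TFRC, not called here, were called with DESeq2 (adjusted p 0.039 and 0.0312) and with no filter (0.00685 and 0.0246). FTL was also called without Sibjeondaebo-tang high or low replicate 1 or Palmul-tang high replicate 1, and TFRC without the high or low replicate 3 of either formula (adjusted p 0.0195 to 0.0488). No member was called between Samul-tang and Palmul-tang, where 0.00565% of genes were, or between Sibjeondaebo-tang and Samul-tang, where 6.34% were. For HMOX1 these differences were 0.26 (95% interval 0.08 to 0.43) and 0.06 (95% interval -0.12 to 0.24).

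Sagunja-tang had 1 library per dose and was not tested. HMOX1 was at 45.6, 46.4 and 59.4 CPM at its low, medium and high dose, FTH1 at 5371, 5483 and 6129 CPM, and FTL at 9357, 9247 and 10932 CPM. SLC40A1 was at 62.7, 57.0 and 46.7 CPM and TFRC at 342, 332 and 296 CPM. The high-dose library was the highest of the 3 for HMOX1, FTH1 and FTL and the lowest for SLC40A1 and TFRC.

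Against vehicle, the members fell into other groups. BACH1, SLC40A1 and TFRC were higher than vehicle, and HMOX2 lower, at both the low and the high dose of all 3 formulas. HMOX1 was lower than vehicle at every low dose and higher at every high dose. All sample titles, of vehicle and extracts alike, name the same batch, BatchE, and do not say what it covers. The library codes of vehicle and extracts begin differently, so that a difference in preparation, if the codes mark one, cannot be told apart from the treatment. The 6 comparisons also share the 3 vehicle libraries.

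At the high dose 6 members were higher and 1 lower in Sibjeondaebo-tang, where 41.8% of all genes were called. For both Palmul-tang (37.1% called) and Samul-tang (29.2% called) 5 were higher and 1 lower. At the low dose 3 were higher and 4 lower in each formula, where 36.9% of all genes were called for Sibjeondaebo-tang, 36% for Palmul-tang and 30.7% for Samul-tang. HMOX1 was at 50.2, 57.6 and 51.7 CPM in vehicle. It was lower at the low doses by log2 changes of -0.23, -0.24 and -0.28 (edgeR adjusted p 0.00064 to 0.00091) and higher at the high doses by 0.67, 0.34 and 0.56 (edgeR adjusted p 1.3e-11, 7.4e-06 and 4.2e-08), in the order Sibjeondaebo-tang, Palmul-tang, Samul-tang.

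BACH1 was at 26.9, 28.1 and 32.6 CPM in vehicle and between 36.2 and 49.4 CPM in all 27 extract libraries, so that no extract library reached down to a vehicle library. Its log2 changes were 0.58, 0.53 and 0.45 at the low doses and 0.72, 0.57 and 0.47 at the high doses. SLC40A1 was at 39.3, 41.3 and 44.4 CPM in vehicle, and its changes were 0.59, 0.55 and 0.55 at the low doses and 0.40, 0.28 and 0.32 at the high doses. TFRC was at 287 ± 12.4 CPM in vehicle (SD, n = 3), with changes of 0.23 to 0.45. HMOX2 was at 59.8 ± 0.742 CPM in vehicle, with changes of -0.13 to -0.26. Its call at the high dose of Sibjeondaebo-tang was lost with no filter on low counts (adjusted p 0.184), with only the compared groups in the fit (0.0745), and without high replicate 1 or 2 (0.0757 and 0.107).

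FTL and BLVRB were lower than vehicle at the low doses, by -0.20 to -0.23 and -0.15 to -0.23 on the log2 scale. In Samul-tang both calls were lost with only the compared groups in the fit, and without vehicle replicate 1 or low replicate 3, and that of BLVRB also without vehicle replicate 2 and without TMM scaling (adjusted p 0.0616 to 0.345). FTL in Sibjeondaebo-tang was not called with only the compared groups in the fit (0.0556). FTH1 and SLC48A1 at its low dose were called lower without vehicle replicate 3 (adjusted p 0.0313 and 0.00912) or low replicate 1 (0.0408 and 0.0271). FTH1 was higher than vehicle at the high doses, by 0.43, 0.17 and 0.25, and the Palmul-tang call was lost without vehicle replicate 3 (0.105) and with only the compared groups in the fit (0.0606).

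**Figure D4:**
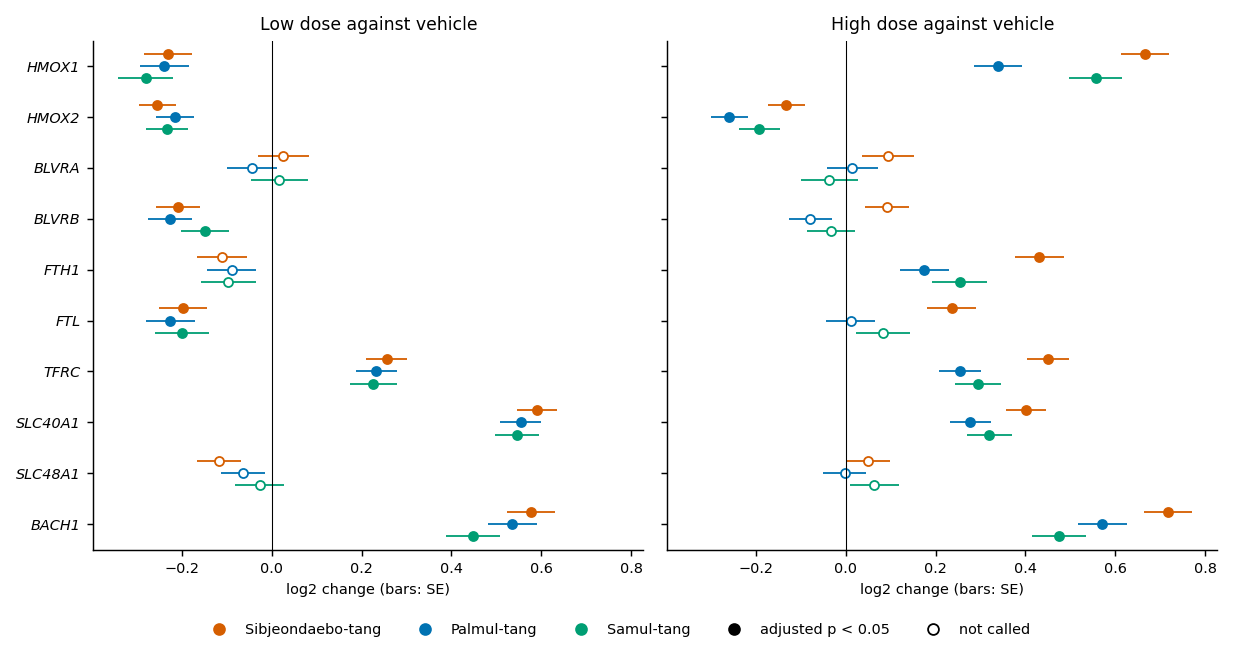
Log2 change of each gene against vehicle at the low dose (left) and the high dose (right) of the 3 replicated formulas; bars are SE and filled points have an edgeR adjusted p under 0.05. HMOX1 is below 0 on the left and above 0 on the right, while BACH1, SLC40A1 and TFRC are above 0 in both panels.

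Over the 30 libraries, which share their groups and scaling, the log2 CPM of HMOX1 correlated with FTH1 at a Pearson r of 0.919 and with FTL at 0.867, and FTH1 with FTL at 0.924. TFRC and BACH1 correlated at 0.881, and HMOX2 and SLC40A1 at -0.685. Of 11192 genes whose log2 CPM averaged 2 or more, those most like HMOX1 included LPCAT3 (r = 0.925), PGD (0.920), FTH1 (0.919), POR (0.918) and ELF3 (0.917). PGD, an enzyme of the pentose phosphate pathway, went from 1277 ± 26.0 to 1586 ± 46.0 CPM between the low and high dose of Sibjeondaebo-tang (SD, n = 3 each).

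A set of 7 lists of other heme and iron genes, of NRF2 and BACH regulators and of other NRF2 targets held 82 genes, of which 76 were tested. With high against low dose, 29 were higher and 11 lower for Sibjeondaebo-tang, 6 and 3 for Palmul-tang, and 6 and 1 for Samul-tang. The shares of all genes called in these comparisons, given above, were 38.4%, 3.47% and 1.34%, and the list counts are read beside them with nothing held particular to the lists. The listed genes had median log2 changes of 0.09, 0.03 and 0.04. The NRF2 targets GCLM and GCLC, subunits of the enzyme that starts glutathione synthesis, rose in all 3 formulas, GCLM by 0.44, 0.38 and 0.35 and GCLC by 0.21, 0.25 and 0.20. FECH, which inserts iron into the heme ring, also rose in all 3, by 0.16, 0.15 and 0.19, as did POR, the electron donor of heme oxygenase, by 0.44, 0.16 and 0.29. ALAS1, the first enzyme of heme synthesis, rose in Sibjeondaebo-tang (0.28) and Samul-tang (0.21), and SRXN1, a sulfiredoxin, in Sibjeondaebo-tang (0.32) and Palmul-tang (0.23). CYBRD1, a ferric reductase, fell in all 3, with changes of -0.15, -0.27 and -0.26. HPX, the heme carrier hemopexin, fell in Sibjeondaebo-tang (-0.53) and Palmul-tang (-0.62). Its level was low, and the Sibjeondaebo-tang doses overlapped, at 3.29 to 4.84 CPM (low) and 2.31 to 3.37 CPM (high). In Palmul-tang they did not, at 4.22 to 4.49 CPM and 2.75 to 2.89 CPM. The calls of list genes were not checked with other settings or with single libraries left out.

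The counts by list are descriptions beside those same shares, of which that of Sibjeondaebo-tang is 18.5% higher and 19.9% lower. By list, 4 of 6 other NRF2 targets were higher for both Sibjeondaebo-tang and Palmul-tang and 2 of 6 for Samul-tang, with 0 lower. Among 11 genes of iron uptake and reduction, 5 were lower and 1 higher in Sibjeondaebo-tang, including STEAP2, a metalloreductase, at -0.68 on the log2 scale. Of 16 genes of mitochondrial iron and iron-sulfur clusters, 7 were higher and 1 lower there, the latter being SLC25A37, the mitochondrial iron importer, at -0.64. Heme synthesis had 5 higher and 1 lower of 13, heme transport and binding 5 and 2 of 12, and iron storage, regulation and export 5 and 1 of 11. The regulators of NRF2 and BACH had 2 higher and 1 lower of 7 in Sibjeondaebo-tang, with a median log2 change of -0.0025, 0 called in Palmul-tang and 1 higher in Samul-tang. STEAP2 and SLC25A37 were chosen after their values were seen.

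**Figure D5:**
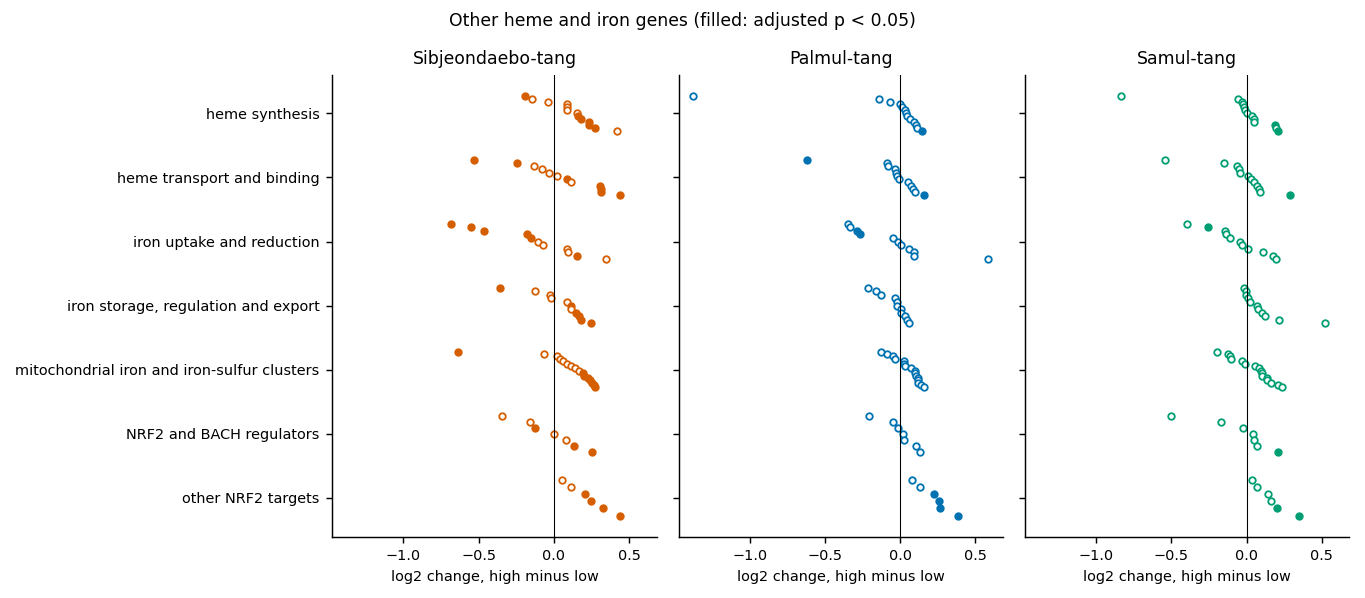
Log2 change, high minus low dose, for each tested gene of 7 lists in the 3 replicated formulas; each point is a gene and filled points have an edgeR adjusted p under 0.05. Filled points number 40 of 76 for Sibjeondaebo-tang, 9 for Palmul-tang and 7 for Samul-tang.

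Promoters from RefSeq (GRCh38.p14, from 250 bases before to 50 after the gene start) covered 8 members, all but HMOX1 and FTH1, in 11 promoters. The core of the antioxidant response element, TGACNNNGC, was in 0 of 11 on either strand and in 13.3% of 35116 promoters. Sites further from the gene start were not searched, so that 0 of 11 does not show that the members lack such sites. The site TGAGTCA, shared by AP-1 and by BACH1 and NRF2 elements, was in 1 of 11 and in 4.95% of all. That promoter was of BACH1 itself, shown because BACH1 stood apart from vehicle, with the site in capitals 48 bases before the gene start.

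BACH1 promoter, chr21:29298849-29298905, plus strand: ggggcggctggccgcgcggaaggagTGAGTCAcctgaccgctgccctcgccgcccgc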

How the data were processed

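Per the labels' protocols, total RNA of A549 cells went into stranded libraries read as 100 bp pairs on an MGI instrument. FastQC 0.11.9, Trim Galore 0.6.5, STAR 2.7.3a and RSEM 1.3.3 and the build GRCh38 are named in the submitters' processing notes. The annotation release is not given in the sources used here. The authors deposited expected counts from RSEM, of which 8.5% to 9.82% per library were not whole, and they were rounded before testing. The table also held 240 columns of other samples, which were not used.

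Groups came from the labels. Genes were kept with filterByExpr, scaled by TMM (factors 0.923 to 1.05) and tested by the quasi-likelihood method of edgeR 4.0.16 (robust; R 4.3.3), with 1 mean per group over all 30 libraries and 17 residual degrees of freedom. P-values were adjusted by Benjamini-Hochberg over 17701 genes. Depth limits precision through the spread between libraries, given as SD. The members, lists and tests were chosen with earlier results of these data known. Named list genes passed in the same direction in at least 2 formulas (8 met this), and of the 6 genes most like HMOX1 those reported here were named, while 1 is not reported here. On simulated data of 17701 genes, 48% of genes raised by 0.5 and 72% of those raised by 1 (log2) were recovered in the Sibjeondaebo-tang comparison of doses, and 5.19% of the calls were unchanged genes. In the Samul-tang comparison 48% and 74% were recovered, and 2.34% of the calls were unchanged genes. Only 50 genes were raised at each size, drawn at any level of expression, while 38.4% of genes were called in the Sibjeondaebo-tang data. These shares therefore need not hold for the data. Alternatives were DESeq2 1.42.0, RLE factors, no filter, only the compared groups, a replicate block, pseudogene counts added and each library left out. Library totals without TMM were added after seeing the data. Of the list genes, 6 were too low to test. Sites were searched in GENCODE 29 transcripts, and the stem of 5 pairs was added after the sites were seen.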

Additional observations from a re-analysis of the deposited data

Results flagged for a closer look

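The rise of HMOX1 from the low to the high dose differed between formulas: it was 0.32 larger on the log2 scale in Sibjeondaebo-tang than in Palmul-tang (SE 0.0743, edgeR adjusted p 0.0031). The same test gave 0.28 for FTH1 (SE 0.078, edgeR adjusted p 0.0133). For HMOX2 it gave 0.17 (SE 0.0585, edgeR adjusted p 0.0497), and that call was lost with no filter on low counts, with only the compared groups in the fit and without any of 8 single libraries (adjusted p 0.0545 to 0.121). With library totals in place of TMM factors none of the 3 was called: HMOX1 was 0.19 (adjusted p 0.0998), FTH1 0.15 (0.173) and HMOX2 0.039 (0.758).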

How the results depend on the processing

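Every called change of HMOX1 kept its direction under the alternatives run, and which comparisons were called changed in 2 cases. With no filter on low counts the high-dose difference of Samul-tang over Palmul-tang was called (0.23 on the log2 scale, adjusted p 0.0224). With library totals in place of TMM factors, the difference in dose response of Sibjeondaebo-tang over Palmul-tang was not called (0.19, adjusted p 0.0998). Without TMM the median of all genes moved to -0.16 between the high and low dose of Sibjeondaebo-tang, the members called higher there were 4 in place of 8, HMOX2 turned to -0.029 and BACH1 to -0.014. The cause was not tested. With single libraries left out, members called higher in Samul-tang ranged from 1 to 3 and lower from 0 to 1. RLE factors changed the call or count in 0 of 159 results. DESeq2 brought 3 more past the threshold. These were FTL at the high dose of Sibjeondaebo-tang over Samul-tang, and FTL and TFRC in the dose response of Sibjeondaebo-tang over Palmul-tang. The replicate number as a block changed 1 of 159, FTH1 at the high dose of Sibjeondaebo-tang over Samul-tang (0.17, adjusted p 0.0535). Same-numbered libraries did not deviate together (median correlation 0.00614 over 111 pairs, -0.122 to 0.0886). Samul-tang rests on 2 libraries per dose and Sagunja-tang on 1, which limits what these comparisons can show.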
